A study of Mus musculus with 15 samples.

Results

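Ligands of the Wnt pathway and the secreted proteins that hold them back were measured in Mouse Embryonic Fibroblasts (MEFs) treated by 4 cytokines. The genes were 5 Wnt ligands (*Wnt2*, *Wnt4*, *Wnt5a*, *Wnt9a* and *Wnt11*), 4 secreted inhibitors (*Sfrp1*, *Sfrp2*, *Dkk2* and *Dkk3*) and *Axin2*, which is commonly used as a readout of the pathway. They were chosen by name, and a probe was assigned to a gene when its identifier was a RefSeq transcript of that gene. This gave 14 probes for the 10 genes, of 56605 distinct probes and 23462 named genes on the array.

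Wnt ligands are secreted glycoproteins that carry a lipid and bind Frizzled receptors on the cell surface. With a coreceptor of the LRP family they stop a cytoplasmic destruction complex from degrading β-catenin, which then enters the nucleus and acts with TCF/LEF factors, while some ligands signal without β-catenin. Secreted Frizzled-related proteins bind the ligands, most Dickkopf proteins bind the LRP coreceptors, and in fibroblasts the pathway is known for its part in matrix production and in fibrosis.

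The cells were Balb/c 3T3 MEFs (clone A31), an established line from mouse embryos. Each of the 5 groups held 3 of the 15 arrays. These were untreated controls, MEFs treated by TNFα (10 ng/ml), by TGFß1 (5 ng/ml), by IL-1β (1 ng/ml), or by IL-6 (20 ng/ml) together with its soluble receptor sIL-6Rα (25 ng/ml). A stimulation of 24 h is stated by the paper for the control, TNFα and TGFß1 arrays, whereas the labels give 24 or 72 h for the series and no time for each group. All groups came from the same line, so that the values describe this line and not fibroblasts in general. An array is called here by its group and the number that opens its label. Arrays of the control, TNFα and TGFß1 groups came from independent experiments, as the paper states. For the IL-1β and IL-6 groups nothing says whether the arrays came from separate cultures, so that the spread within these groups may be technical only. In the main fit the spread was estimated over all 15 arrays, so that the q-values of every comparison could then be too small. All comparisons with control share the same 3 control arrays.

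Values are log2 signals minus the 75th percentile of the array, so that 0 marks that percentile and higher values are brighter, and levels of different probes are not compared. Between 48.3% and 54.9% of the probes of an array were well above background, a mark given by the scanner software. Testing was limited to the 29334 probes for which all 3 arrays of some group carried this mark. A difference was called when the q-value of limma's moderated test (two-sided, Benjamini-Hochberg adjustment over all tested probes) was below 0.05 and the absolute fold-change at least 1.5. The arrays lay on 2 slides, and arrays of the same group correlated at 0.990 to 0.995 within a slide and at 0.977 to 0.985 between slides across probes. The groups were split unevenly over the slides. Control, IL-1β and IL-6 each had 2 arrays on slide 1 and 1 on slide 2, while TNFα and TGFß1 each had 1 and 2. Within slide 2 every comparison with control thus rests on control 6 alone, and within slide 1 TNFα and TGFß1 rest on 1 array each. Their label numbers form 3 runs of 5, each with 1 array of every group, and fits with the slide, or with the run and the slide, as blocks are given where they change a call. All 8 fibroblast markers were well above background on all 15 arrays, whereas *Ptprc*, the defining marker of leukocytes, and *Cdh5*, that of endothelium, were above background on none. Of the 6 leukocyte markers 3 (*Csf1r*, *Itgam* and *Cd3e*) were above background on all arrays and 2 on none, and of the 4 endothelial markers 1 (*Pecam1*) on all and 3 on none. Textbook targets of 3 of the cytokines changed. *Cxcl1* rose with TNFα (log2 fold-change 3.65) and IL-1β (4.14), and *Socs3* rose with IL-6 (2.39).

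All 7 tested genes, *Wnt2*, *Wnt5a*, *Wnt9a*, *Sfrp1*, *Sfrp2*, *Dkk2* and *Dkk3*, were well above background on the 3 control arrays. The other 3 were not tested. *Axin2* was not well above background on any array with either of its probes, and its brighter probe lay between -7.16 and -5.30. *Wnt4*, a ligand known from kidney and gonad development, was above background on 1 array only. *Wnt11*, a ligand known for signaling without β-catenin, was above background on 3 arrays with its first probe (NM_009519), namely control 6 at -4.06, TGFß1 2 at -4.27 and TGFß1 12 at -4.48, and on 2 arrays with its second. Nothing is said here on whether these 3 genes changed, since their signals gave only upper limits on most arrays.

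**Figure D1:**
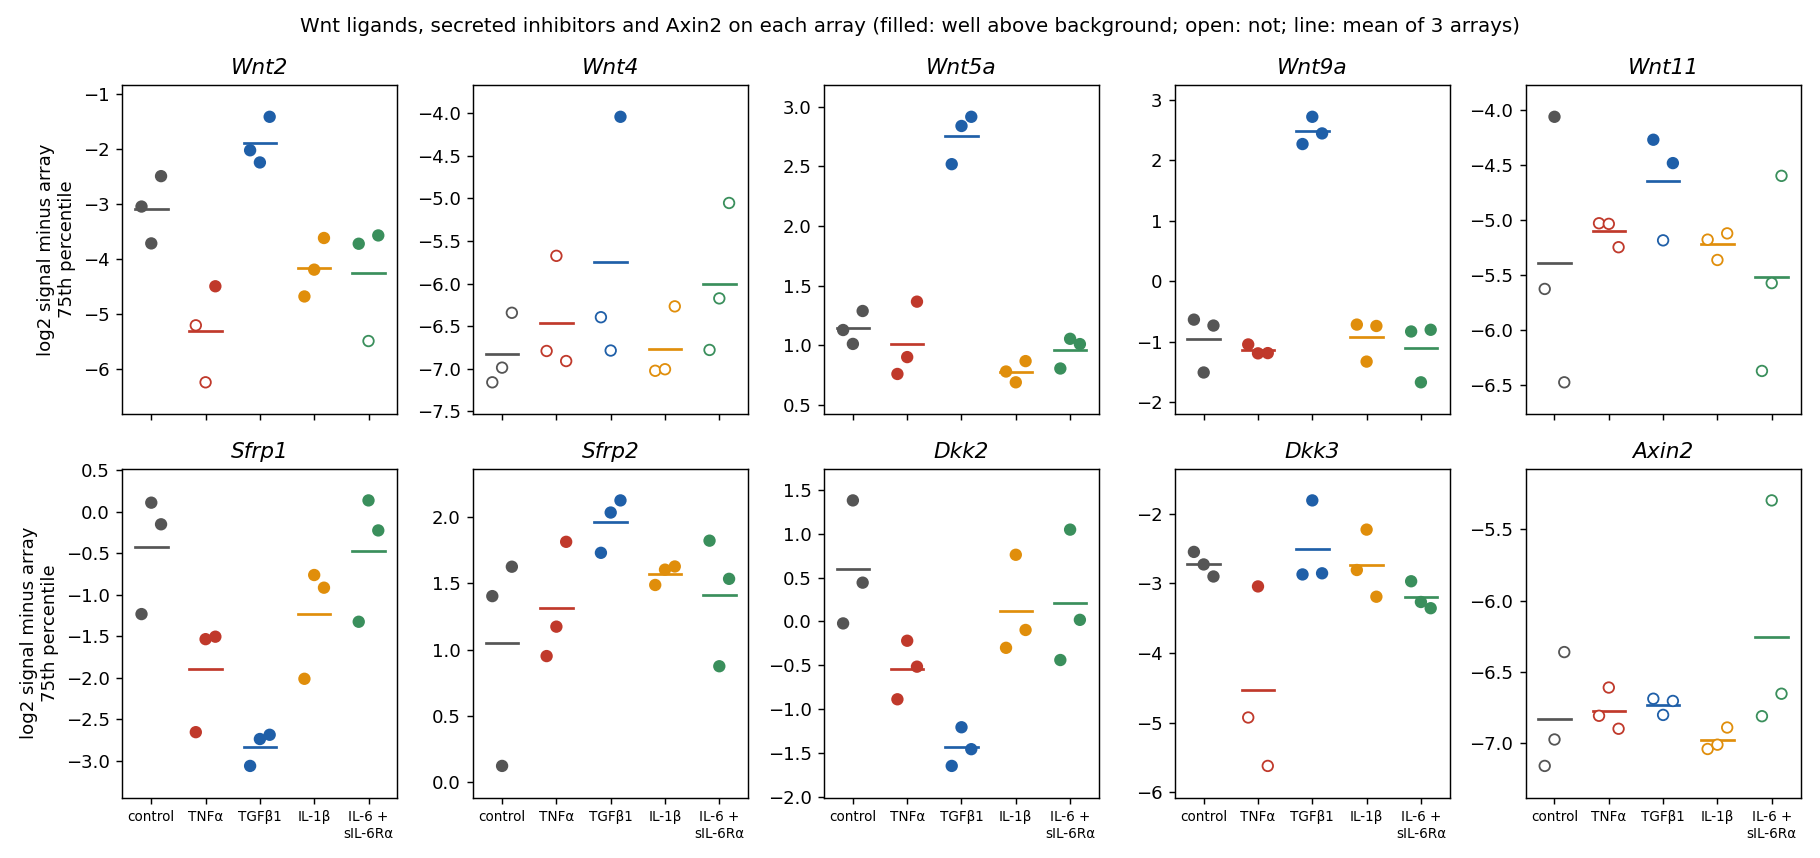
Log2 signal minus the 75th percentile of the array (vertical axis, with its own range in each panel) for the 10 genes on the 15 arrays, by group. Filled points are well above background, open points are not, and lines are means of 3 arrays; the probe with the highest mean signal is shown for each gene. The TGFß1 points of *Wnt2* (not called against control), *Wnt5a* and *Wnt9a* lie above all others, those of *Sfrp1* and *Dkk2* below all others, and the *Axin2* panel holds open points only.

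The promoters of the ligand that rose most with TGFß1, of an inhibitor that fell with it, and of the ligand that fell with TNFα are shown for context. Each is the RefSeq sequence of the 250 bases before the transcription start on the assembly GRCm38.p6, read 5′ to 3′ on the strand of the gene. It lies upstream of the first exon, and 7 of the 10 genes had an entry. Capitals mark the core of a TATA box (TATAA). *Wnt9a* lies on the plus strand (chr11:59306680-59306929), *Dkk2* on the plus strand (chr3:132085042-132085291) and *Wnt2* on the minus strand (chr6:18030446-18030695).
Wnt9a: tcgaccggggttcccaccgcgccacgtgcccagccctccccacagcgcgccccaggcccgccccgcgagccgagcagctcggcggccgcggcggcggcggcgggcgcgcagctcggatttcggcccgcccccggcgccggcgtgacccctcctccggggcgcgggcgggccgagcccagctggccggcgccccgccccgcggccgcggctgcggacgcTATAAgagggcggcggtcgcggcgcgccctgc
Dkk2: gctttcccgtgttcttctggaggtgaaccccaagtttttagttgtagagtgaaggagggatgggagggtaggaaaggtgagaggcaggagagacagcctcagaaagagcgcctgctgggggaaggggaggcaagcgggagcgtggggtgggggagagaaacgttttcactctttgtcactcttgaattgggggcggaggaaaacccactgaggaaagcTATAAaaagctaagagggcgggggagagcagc
Wnt2: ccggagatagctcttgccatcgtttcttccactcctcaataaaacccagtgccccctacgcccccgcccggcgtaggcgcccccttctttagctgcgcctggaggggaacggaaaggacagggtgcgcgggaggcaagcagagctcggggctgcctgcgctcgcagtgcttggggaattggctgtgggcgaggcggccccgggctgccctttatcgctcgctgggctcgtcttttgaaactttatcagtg
Both *Wnt9a* and *Dkk2* had TATAA at the same place, 32 to 28 bases before the start, although they moved in opposite directions with TGFß1. These letters were found on either strand in 22.8% of the 32851 promoters of the same length. The SMAD motif CAGAC (42.2% of all promoters), the TCF/LEF motif CTTTGAT (3.21%), the AP-1 motif TGANTCA (6.75%) and the NF-kB motif (3.9%) were searched on both strands as well, and none had a match in these 3 windows. Among the other members with an entry, CAGAC was found for *Sfrp2* (238 to 234 bases before the start), for *Axin2* (117 to 113 bases) and for 1 of the promoters of *Wnt11* (114 to 110 bases). The TCF/LEF motif was found in the other *Wnt11* promoter only, 51 to 45 bases before the start. A match is a description of the letters and not of a bound site.

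What TGFß1 did to the ligands and their inhibitors was asked first. *Wnt9a* rose about 10.8-fold and *Wnt5a* about 3.07-fold in MEFs treated by TGFß1, while the inhibitors *Sfrp1* and *Dkk2* fell by log2 values of 2.40 and 2.04. Of the 7 tested genes, 4 were called, 2 higher and 2 lower, which is 57.1%, where 17.9% of all tested probes were called, 7.51% higher and 10.4% lower. The median log2 fold-change of all 7 tested genes was 0.91, the value of *Sfrp2*, which was not called, with 0.07 over all tested probes. With the slide as a block 5 genes were called (20.3% of all probes), *Sfrp2* in addition, and with the run and the slide 6 (22.7% of all probes), *Sfrp2* and *Wnt2* in addition. The arrays measured RNA of whole cultures, so that less RNA of a gene per cell and fewer cells with that RNA cannot be told apart.

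*Wnt9a* (NM_139298), a ligand of the β-catenin pathway known from joint formation, had values of -0.63, -1.51 and -0.73 on controls 1, 6 and 11. The TGFß1 arrays 2, 7 and 12 gave 2.27, 2.72 and 2.45. Every TGFß1 array thus exceeded every array of the other 4 groups, the highest of which was control 1. The log2 fold-change was 3.44 (standard error 0.28, q = 6.7e-06, limma), the 66th highest of the 29334 probes, and 3.40 and 3.87 within slide 1 and slide 2. It was between 3.16 and 3.60 when 1 array was left out, and was called each time.

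*Wnt5a* (NM_009524), the best known ligand of signaling without β-catenin, had values of 1.13, 1.01 and 1.29 on controls 1, 6 and 11. The TGFß1 arrays gave 2.52, 2.84 and 2.92, and again no array of another group reached the lowest of them. The log2 fold-change was 1.62 (standard error 0.16, q = 3.4e-05, limma). The second probe of the gene, which is dimmer, gave 1.58 (q = 0.0074, limma), so that both probes placed the rise near 3-fold. *Wnt5a* and *Wnt9a* ran together over the 15 arrays, with a Pearson's r of 0.95 that rests mainly on the TGFß1 arrays.

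*Wnt2* (NM_023653), a ligand of the β-catenin pathway known from lung development, lay at -3.05, -3.72 and -2.50 on controls 1, 6 and 11 and at -2.03, -2.25 and -1.42 on TGFß1 2, 7 and 12. The groups did not overlap, as for 38.8% of all tested probes in this comparison. The log2 fold-change of 1.19 (95% interval -0.00 to 2.38, q = 0.138, limma) was not called. It was called with the run and the slide as blocks (1.24, q = 0.0125, limma), and lay at 0.52 within slide 1 and 2.00 within slide 2.

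*Sfrp1* (NM_013834), a secreted Frizzled-related protein that binds Wnt ligands, lay at -1.23, 0.11 and -0.15 on controls 1, 6 and 11. On TGFß1 2, 7 and 12 it lay at -3.06, -2.74 and -2.69, below every other array of the series. Its log2 fold-change was -2.40 (standard error 0.47, q = 0.0032, limma), with -2.04 within slide 1 and -2.98 within slide 2. *Dkk2* (NM_020265), a Dickkopf protein that binds the LRP coreceptors, lay at -0.02, 1.38 and 0.44 on the controls and at -1.65, -1.21 and -1.46 on the TGFß1 arrays. Here too the TGFß1 arrays were the lowest of all 15. The log2 fold-change was -2.04 (standard error 0.42, q = 0.0041, limma), with -1.42 and -2.93 within the slides. Both inhibitors were called without any single array, with log2 fold-changes between -2.81 and -2.14 for *Sfrp1* and between -2.35 and -1.65 for *Dkk2*.

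For the other inhibitors no change was called. *Sfrp2* (NM_009144), a relative of *Sfrp1*, lay at 1.40, 0.12 and 1.63 on controls 1, 6 and 11 and at 1.73, 2.03 and 2.13 on TGFß1 2, 7 and 12. The groups did not overlap, but control 6 lay far below the other controls, and the log2 fold-change of 0.91 (95% interval 0.13 to 1.69, q = 0.0844, limma) was not called. It was called with the slide as a block (1.04, q = 0.0301, limma), with the run and the slide (1.08, q = 0.00305, limma) and without control 11 (1.20, q = 0.0437, limma), and lay at 0.52 within slide 1 and 1.80 within slide 2. Without control 6 it was 0.45, less than its value with all arrays by over 1.5 times. *Dkk3* (NM_015814), the Dickkopf protein least like the others in sequence, overlapped between the groups, with a log2 fold-change of 0.21 (95% interval -0.91 to 1.34, q = 0.794, limma).

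A marker of epithelium rose with TGFß1 as well. Of the 4 listed, *Krt8* was above background on 3 TGFß1 arrays and on no control, and was at least 3.37-fold higher (q = 0.0176, limma), *Krt18* had a log2 fold-change of 1.78 (q = 0.172), *Epcam* was above background on 1 TGFß1 array and *Cdh1*, the defining cadherin of epithelium, on no array. *Krt8* was tested through the TGFß1 arrays alone, which favours a call of a rise. The log2 of the mean signal of the 4 markers was -4.18 to -2.76 on the TGFß1 arrays and -6.01 to -4.39 on the controls. Their part in the changes of the Wnt genes was not tested.

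**Figure D2:**
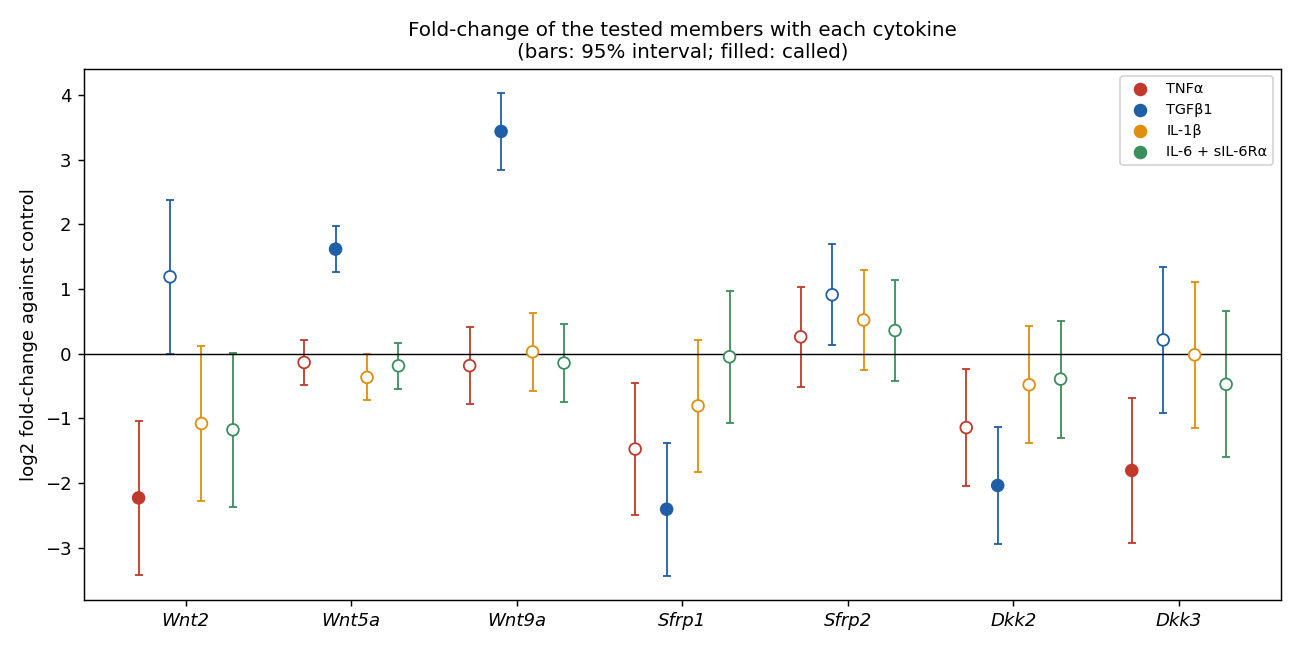
Log2 fold-change against control (vertical axis) of the 7 tested genes with TNFα, TGFß1, IL-1β and IL-6 with sIL-6Rα. Bars are 95% intervals of limma's fit on 15 arrays, filled points were called and open points were not; the TGFß1 points reach from -2.40 for *Sfrp1* to 3.44 for *Wnt9a*, while no IL-1β or IL-6 point is filled.

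The response to TNFα, the proinflammatory cytokine, was compared with the same controls. In MEFs treated by TNFα, *Wnt2* and *Dkk3* fell, and neither of the ligands that rose with TGFß1 was called. Both *Wnt2* and *Dkk3* were tested through groups other than TNFα, which favours calls of a fall with TNFα. Of the 7 tested genes, 2 were called, both lower, which is 28.6%, where 10.0% of all tested probes were called, 4.09% higher and 5.96% lower. The median log2 fold-change of all 7 tested genes was -1.14, the value of *Dkk2*, which was not called, with 0.04 over all tested probes. With the slide as a block 3 genes were called (12.0% of all probes), *Sfrp1* in addition, and with the run and the slide 4 (15.4% of all probes), *Sfrp1* and *Dkk2* in addition.

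*Wnt2* lay at -5.21, -6.24 and -4.50 on TNFα 4, 9 and 14, below all controls, and only TNFα 14 was well above background. The log2 fold-change was -2.23 (standard error 0.55, q = 0.0188, limma), with -1.72 within slide 1 and -2.01 within slide 2. Because the signal on the remaining TNFα arrays is at the background, the size of the fall depends on how background is handled. With normexp, a background correction that raises dim signals, it was -0.52 (q = 0.0704, limma) and not called. The call was also lost without control 1 (-2.21, q = 0.0507), control 11 (-1.93, q = 0.0772), TNFα 4 (-2.28, q = 0.0568) or TNFα 9 (-1.76, q = 0.0773), by limma in each case.

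*Dkk3* lay at -2.55, -2.73 and -2.90 on controls 1, 6 and 11 and at -4.93, -3.04 and -5.62 on TNFα 4, 9 and 14, where only TNFα 9 was well above background. That array lay close to the controls and the remaining TNFα arrays far below them. The log2 fold-change was -1.80 (standard error 0.52, q = 0.0389, limma), with -2.89 within slide 1 and -1.26 within slide 2. The call was lost in the fit of 9 arrays (q = 0.0941), without a filter on dim probes (q = 0.0851) and without any of 10 of the 15 arrays, which were all 3 controls, TNFα 4 and 14, TGFß1 12, IL-1β 5 and the 3 IL-6 arrays (limma, q from 0.0504 to 0.147). The log2 fold-change was -1.61 without TNFα 4, -1.26 without TNFα 14, -2.55 without TNFα 9 and -0.61 with normexp. The second probe of the gene was above background on 3 arrays, none of them treated by TNFα, and was not tested.

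*Sfrp1* lay at -2.65, -1.53 and -1.50 on TNFα 4, 9 and 14, below all controls, with a log2 fold-change of -1.47 (95% interval -2.50 to -0.45, q = 0.0617, limma) that was not called. It was called with the slide as a block (-1.53, q = 0.0494, limma), with the run and the slide (-1.51, q = 0.000272, limma), and without control 1 (-1.88, q = 0.0306), IL-1β 5 (q = 0.0498) or IL-6 3 (q = 0.0447), by limma. *Dkk2* lay at -0.89, -0.22 and -0.52, again below all controls, with a log2 fold-change of -1.14 (95% interval -2.05 to -0.23, q = 0.0999, limma). It was called with the run and the slide (-1.16, q = 0.00150, limma) and with the run alone (-1.14, q = 0.00206, limma). For 4 of the 7 genes the TNFα and control arrays did not overlap, as for 28.9% of all tested probes.

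*Wnt5a* and *Wnt9a*, which rose with TGFß1, had log2 fold-changes with TNFα of -0.13 (95% interval -0.49 to 0.22) and -0.18 (95% interval -0.78 to 0.42). *Wnt5a* lay at 0.76, 0.90 and 1.36 on TNFα 4, 9 and 14, and *Wnt9a* at -1.04, -1.19 and -1.19. Both overlapped with the controls, and the intervals leave out a rise of the size seen with TGFß1. *Sfrp2* lay at 0.95, 1.17 and 1.81, with a log2 fold-change of 0.26 (95% interval -0.52 to 1.04).

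**Figure D3:**
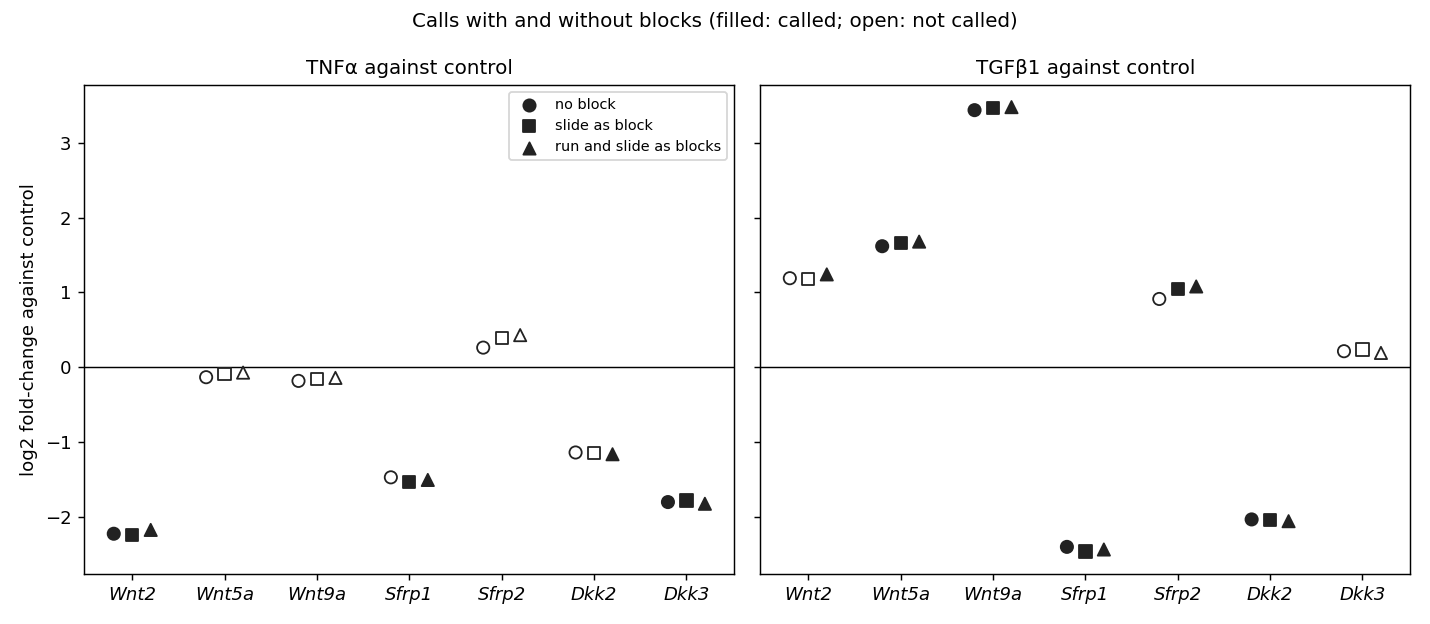
Log2 fold-change against control (vertical axis) of the 7 tested genes with TNFα (left) and TGFß1 (right) in 3 fits, without a block, with the slide, and with the run and the slide. Filled symbols were called. The values differ little between the fits, whereas the number of filled symbols goes from 2 to 4 with TNFα and from 4 to 6 with TGFß1.

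In the direct comparison of TNFα with TGFß1, 4 of the 7 genes were called, all lower with TNFα, where 11.8% of all tested probes were called, 6.61% higher and 5.17% lower. These were *Wnt9a* (log2 fold-change -3.62, q = 2.4e-06), *Wnt2* (-3.42, q = 0.000924), *Dkk3* (-2.02, q = 0.0188) and *Wnt5a* (-1.75, q = 1.3e-05), all by limma. For *Wnt2* all TNFα arrays (-6.24 to -4.50) lay below all controls and all TGFß1 arrays (-2.25 to -1.42) above them, with 1 of the TNFα arrays well above background. *Sfrp1* and *Dkk2* had higher values on all TNFα arrays than on all TGFß1 arrays (34.2% of all probes did not overlap here), by 0.93 (95% interval -0.09 to 1.95, q = 0.235) and 0.90 (95% interval -0.01 to 1.80, q = 0.192), and were called with the run and the slide as blocks (q = 0.00317 and q = 0.00495). With these blocks all 7 genes were called, where 16.1% of all probes were. *Dkk3* lost its call in the fit of 9 arrays (q = 0.0590) and without TNFα 4 (-1.82, q = 0.0717), TNFα 14 (-1.47, q = 0.0774) or TGFß1 7 (-1.67, q = 0.0864).

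IL-1β and IL-6 with its receptor left no called change among these genes. In either comparison with control 0 of the 7 genes were called by limma, where 0.232% of all tested probes were called with IL-1β and 0.0580% with IL-6. With the run and the slide as blocks 0 genes were called as well, where 1.10% and 0.787% of all probes were. At an unadjusted p below 0.05 there was 1 gene with IL-1β and 0 with IL-6. The gene was *Wnt5a*, with values of 0.78, 0.69 and 0.87 on IL-1β 5, 10 and 15, all below the controls (as for 5.33% of all probes in either direction), and a log2 fold-change of -0.36 (95% interval -0.72 to -0.01). With IL-6 the arrays of *Dkk3*, at -2.97, -3.27 and -3.36, all lay below the controls (5.05% of all probes), with a log2 fold-change of -0.47 (95% interval -1.60 to 0.65). For *Wnt2* the values were -4.68, -4.19 and -3.62 with IL-1β and -3.72, -5.49 and -3.57 on IL-6 3, 8 and 13. They overlapped with the controls, although the log2 fold-changes of -1.08 (95% interval -2.27 to 0.11) and -1.18 (95% interval -2.37 to 0.02) were the 49th and 39th lowest of all tested probes. Within slide 1 they were -1.67 and -1.84, and within slide 2 0.10 and 0.14.

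*Sfrp1* lay at -2.01, -0.76 and -0.91 on IL-1β 5, 10 and 15, with a log2 fold-change of -0.80 (95% interval -1.83 to 0.22), and at -1.33, 0.14 and -0.23 on IL-6 3, 8 and 13, with -0.05 (95% interval -1.07 to 0.98). In all 5 groups, TNFα and TGFß1 included, the lowest array was that of the first run, for *Sfrp1* and for *Dkk2*. *Dkk2* followed the same order of arrays, at -0.30, 0.76 and -0.10 with IL-1β and at -0.44, 1.05 and 0.02 with IL-6. Over the 15 arrays *Sfrp1* and *Dkk2* had a Pearson's r of 0.93, the arrays sharing slides and runs. *Wnt9a* was at -0.72, -1.33 and -0.74 with IL-1β and at -0.83, -1.67 and -0.80 with IL-6, close to its controls (95% intervals -0.57 to 0.63 and -0.74 to 0.46).

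Compared with TGFß1, 5 of the 7 genes were called for IL-1β, where 16.9% of all tested probes were (10.2% higher and 6.68% lower), and 5 for IL-6, where 16.3% were (9.69% higher and 6.57% lower). In both comparisons *Wnt2*, *Wnt5a* and *Wnt9a* were lower and *Sfrp1* and *Dkk2* higher than with TGFß1. With the run and the slide as blocks 5 were called for IL-1β (22.3% of all probes) and 6 for IL-6 (21.6% of all probes), *Sfrp2* in addition for IL-6. *Sfrp1* was 1.60 higher with IL-1β (q = 0.0287, limma) and 2.36 higher with IL-6 (q = 0.0039, limma) on the log2 scale. Against IL-1β the call of *Sfrp1* was lost without IL-1β 10, IL-1β 15 or any TGFß1 array (1.36 to 1.67, q up to 0.123, limma), and that of *Dkk2* (1.56) without IL-1β 10 (1.24), TGFß1 2 (1.45) or TGFß1 12 (1.55). Against IL-6 the call of *Dkk2* (1.64) was lost without IL-6 8 (1.23) or TGFß1 2 (1.54). Compared with TNFα, 0 genes were called for IL-1β (4.69% of all probes) or IL-6 (8.59% of all probes) by limma, where 1 and 2 genes had an unadjusted p below 0.05, and 4 were called in each with the run and the slide as blocks (10.5% and 14.1% of all probes). Between IL-1β and IL-6, 0 genes were called (0.399% of all probes), and 0 had an unadjusted p below 0.05 by limma.

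The order of the group means placed TGFß1 highest for *Wnt2*, *Wnt5a*, *Wnt9a*, *Sfrp2* and *Dkk3* and lowest for *Sfrp1* and *Dkk2*. For *Sfrp1* and *Dkk2* the order was the same, from control over IL-6, IL-1β and TNFα down to TGFß1, and no neighbours in it were called as different without a block, while TNFα differed from IL-1β and from TGFß1 with the run and the slide as blocks. For *Wnt5a* and *Wnt9a* the means of the other groups reached from 1.14 in controls to 0.78 with IL-1β and from -0.93 with IL-1β to -1.14 with TNFα, and no neighbours among them were called as different. For *Wnt2* the order was TGFß1, control, IL-1β, IL-6 and TNFα, and no neighbours were called as different without a block, while TGFß1 differed from control and IL-6 from TNFα with the run and the slide as blocks. *Sfrp2* was called in 0 of the 10 comparisons by limma without a block, with an unadjusted p below 0.05 in 1 of them, and in 3 with the run and the slide.

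The genes with the most similar pattern over the 15 arrays were sought among 13487 named genes by Pearson's r, as a description only. *Wnt9a* was most like *Heatr5a*, *Ret* and *Whrn* (each 0.98). *Wnt2* was most like *Pkp2* (0.94), *Egr4* (0.93) and *Pacsin2* (0.92), *Sfrp1* most like *Particl*, *Cst3* and *Rgl1* (0.97 each), and *Dkk2* most like *Rora*, *Slc22a17* and *Asah2* (0.97 each).

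The rest of the pathway was described by 77 further genes in 8 lists by role, of which 49 were tested and 22 were above background on no array. With TGFß1, 18 of the 49 were called (36.7%, with 17.9% of all tested probes), 11 higher and 7 lower. With TNFα 11 were called (22.4%, with 10.0% of all tested probes), 3 higher and 8 lower. With the run and the slide as blocks 20 were called with TGFß1 and 14 with TNFα (22.7% and 15.4% of all probes). The counts by role that follow are from the fit without a block, for which the shares of 17.9% and 10.0% apply. The median log2 fold-changes of all 49 genes were 0.16 with TGFß1 and -0.05 with TNFα, with 0.07 and 0.04 over all tested probes. With IL-1β and IL-6, 0 of the 49 were called by limma (1 and 2 with an unadjusted p below 0.05), and 2 and 1 were called with the run and the slide as blocks (1.10% and 0.787% of all probes). Lists are described by these counts and were not tested as sets. *Rspo1* and *Lef1* were tested through the TGFß1 arrays alone, and *Fzd9* and *Wnt7b* through those of TNFα and TGFß1 alone. For these genes the filter favours calls of a rise with those cytokines. *Wnt16* and *Lgr5* were tested through the control, IL-1β and IL-6 arrays alone, which favours calls of a fall with TNFα and TGFß1.

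Among 14 other ligands, 5 were tested, and TGFß1 changed 4 of them, 2 in each direction, and TNFα 3 of them, 1 higher and 2 lower (17.9% and 10.0% of all probes). *Wnt16*, a ligand known from bone, lay at -2.06, -1.07 and -1.31 on controls 1, 6 and 11, while no TGFß1 array was well above background. It was at least 9.54-fold lower with TGFß1, and with TNFα it fell by 3.78 on the log2 scale, with 1 array above background. *Wnt10b* fell with both, by 1.30 with TNFα and by 1.39 with TGFß1. *Wnt5b*, the closest relative of *Wnt5a*, rose with TGFß1 by a log2 fold-change of 1.71, and *Wnt7b* by 2.15, but the second probes of these genes gave 0.53 and 0.64 and were not called. Of the 10 other secreted inhibitors 8 were above background on no array, and *Notum*, an enzyme that removes the lipid of Wnt ligands and the only inhibitor tested, had log2 fold-changes of -0.01 with TNFα and -0.07 with TGFß1.

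Among 15 receptors and coreceptors, 12 were tested, of which 5 were called with TGFß1 (3 higher, 2 lower) and 3 with TNFα (1 higher, 2 lower), beside 17.9% and 10.0% of all probes. The Frizzled gene *Fzd1* fell with both cytokines, from a control mean of 3.43 to 1.55 with TGFß1 (log2 fold-change -1.88) and 2.16 with TNFα (-1.27). *Fzd9* rose with both, by 3.09 and 2.09, but was above background on 1 control array only. *Fzd4* fell with TGFß1 (-1.42) and *Fzd2* with TNFα (-0.73). The 2 genes for the release of Wnt ligands, *Porcn* and *Wls*, and the 9 genes of the cytoplasmic relay and the destruction complex, among them *Ctnnb1*, which encodes β-catenin, had 0 calls by limma in the comparisons with control, with or without the blocks. At an unadjusted p below 0.05 there was 1 of the relay genes with TNFα and 0 with TGFß1, and 1 of the release genes with each. The median log2 fold-changes of the relay genes were 0.16 with TGFß1 and -0.02 with TNFα.

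R-spondins strengthen Wnt signaling through the LGR receptors. Of 9 genes of this axis 5 were tested, and TGFß1 changed 4 of them, 2 higher and 2 lower, and TNFα 2, both lower (17.9% and 10.0% of all probes). *Rspo1* was above background on the TGFß1 arrays alone, at -2.84, -4.34 and -3.02, and was at least 2.67-fold higher there than in controls. *Rspo2* went the other way, from -0.33, 0.69 and 0.32 on the controls to -2.70, -2.39 and -2.51 (log2 fold-change -2.76, q = 0.000192, limma). In the direct comparison *Rspo2* was 3.30 higher with TNFα than with TGFß1 on the log2 scale, and *Rspo1*, above background on no TNFα array, was at least 2.54-fold lower. The receptor gene *Lgr5* fell with both cytokines, by 2.79 with TGFß1 and by 3.81 with TNFα, and was above background on 2 and 1 of their arrays. Within slide 1 and slide 2 its log2 fold-changes were -0.83 and -4.59 with TGFß1, and -4.12 and -4.46 with TNFα. *Lgr4* fell with TNFα by 0.76.

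Of the TCF/LEF factors and cofactors, 7 of 8 were tested. *Lef1* rose with TGFß1 (log2 fold-change 2.35, q = 0.00298, limma), from -3.53, -4.25 and -4.52 on the controls to -1.64, -1.47 and -2.14. It was above background on 2 controls and was tested through the TGFß1 arrays alone. *Tcf7l1* and *Tcf7l2* fell with TNFα by 0.82 and 0.63. Of the other *Tcf7l2* probes, that at -0.86 was called with TNFα, and those at -0.85 and -0.32 were not. With the slide as a block *Tcf7l1* was also called lower with TGFß1 (-0.60, q = 0.0017, limma). Of 10 feedback and target genes 8 were tested, and 4 were called with TGFß1, 3 higher and 1 lower. *Ccn4*, a secreted matricellular protein, rose by 1.18 and *Myc*, a growth regulator, by 1.53, while *Ccn5*, a relative of *Ccn4*, fell by 1.31. Within slide 1 and slide 2 the values were 1.04 and 2.62 for *Myc* and -1.92 and -0.54 for *Ccn5*. For *Myc*, control 6 lay at 0.65, with controls 1 and 11 at 2.37 and 2.31. With TNFα 1 was called, *Cd44*, a receptor of hyaluronan, which rose by 0.90, and it also rose with TGFß1, by 0.91. The second *Cd44* probe was called with both (1.04 with TNFα and 0.77 with TGFß1), but the third was called with neither (0.74 and 0.03). The feedback genes *Nkd1* and *Sp5* were, like *Axin2*, above background on no array.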

How the data were processed

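RNA of MEFs was hybridized by the authors to 15 1-color Agilent arrays, 3 per group. The deposited scanner files hold spot intensities after the background subtraction and spatial detrending of Agilent Feature Extraction 10.7.3.1, without normalization between arrays. The table of the whole series held the same intensities (largest difference 0). The methods of the paper name limma, a q-value threshold and a Z-score, which its legend ties to the heat map. The fold-change threshold is in its results. A normalization between arrays before the tests and a probe filter are not given in the sources used here.

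Here, control and outlier-flagged spots were left out, replicate spots of a probe were averaged as log2 intensities, and each array was centred on its 75th percentile. A probe counted as well above background where at least 0.5 of its spots were so marked, and 29334 of 56605 were tested. Names came from RefSeq identifiers, matched to GRCm38.p6 for 33767 probes. The probe with the brightest mean stands for its gene. No spot was saturated. Groups were taken from the labels and compared with limma 3.58.1 in R 4.3.3, in a fit of all 15 arrays without covariates. This fit was tested on simulated data with independent noise on each array and no slide or run effect. That test therefore says nothing on leaving out the slide and the run. The number of arrays limits the precision. A probe above background on no array of 1 group gave a bound, from the brighter group's mean minus the mean over the dim group's arrays of the higher of the probe's value and the dimmest value above background.

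The genes, lists and tests were chosen with earlier results of these data known. By rule, all 10 genes are named, and of each list at most the 3 largest called changes per comparison with control whose treated arrays lay on 1 side of all controls. *Ptprc*, *Csf1r*, *Itgam*, *Cd3e*, *Pecam1*, *Cdh5*, *Cdh1*, *Notum*, *Porcn*, *Wls*, *Ctnnb1*, *Nkd1* and *Sp5* were named in addition, with their values seen.

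The slide was read from the file headers. Runs of 5 label numbers (1 to 5, 6 to 10, 11 to 15) are not stated in the labels. Deviations from the group means, with the slide removed too, correlated at 0.114 to 0.671 in all 30 pairs of arrays of a run, and at over 0.1 in 2 of 60 pairs from different runs. With the slide left in, 12 of 30 and 28 of 60 exceeded 0.1. The run was therefore taken as a block. Alternatives were quantile normalization, normexp, no filter and a stricter filter, the slide, the run with and without the slide, 9 arrays, a variance trend, the mean of a gene's probes and leaving out each array.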

Additional observations from a re-analysis of the deposited data

Results flagged for a closer look

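Of the genes and probes that were not tested, 5 signals were well above background on an array of a treated group and exceeded all control arrays. *Wnt4* was above background on TGFß1 12 at -4.04, where the highest control was at -6.34 and the other TGFß1 arrays lay at -6.39 or below. The second probe of *Wnt11* (NM_001285792) was at -2.23 on TNFα 9 and at -4.21 on TGFß1 2, with the highest control at -5.32. The second probe of *Dkk3* was at -3.65 on TGFß1 7 and at -4.50 on IL-1β 10, with the highest control at -4.67. Each of these signals was seen on a single array of its group, and the other probe of *Dkk3* was also highest on these arrays within their groups, at -1.81 and -2.23.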

How the results depend on the processing

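For TNFα against control, where 2 of 7 genes were called, there were 1 with normexp, 1 without a filter on dim probes, 0 among probes above background on all arrays, where *Wnt2* and *Dkk3* are not tested, 4 with the run and the slide, 4 with the run alone, 1 in the fit of 9 arrays, and 0 to 2 when 1 array was left out (0 without control 11 or TNFα 4). For TNFα against TGFß1 the count of 4 became 2 with the stricter filter, 7 with the run and the slide, and 3 to 4 without 1 array. IL-1β against TNFα gave 4 with the run and the slide and 4 with the run alone, and IL-6 against TNFα gave 4 and 2, each with 0 to 1 without 1 array (1 without TNFα 9 in both, and without IL-6 3 in the latter). IL-1β against TGFß1 gave 3 to 5 and IL-6 against TGFß1 4 to 5 without 1 array. TGFß1 against control gave 4 to 6 over 10 alternatives and 4 to 5 without 1 array, and IL-1β and IL-6 against control gave 0 throughout.

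When 1 array was left out, signs turned in comparisons that were not called. The ranges were -0.24 to 0.23 for *Wnt9a* with IL-1β, -0.42 to 0.14 for *Wnt9a* with IL-6, -0.45 to 0.38 for *Sfrp1* with IL-6, -0.20 to 0.55 for *Sfrp2* with TNFα, -0.10 to 0.65 for *Sfrp2* with IL-6, -0.14 to 0.39 for *Dkk3* with TGFß1 and -0.27 to 0.21 for *Dkk3* with IL-1β. Within a slide, 13 of 108 values had the opposite sign to the fit of all arrays, 0 of them in a called comparison. The cause was not tested. The label numbers of the groups do not coincide, so that arrays were paired by the run of 5 numbers alone. Signal near background limits *Wnt2*, *Dkk3* and the genes not tested.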
